A study of Mus musculus with 4 samples.

Results

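Integrins are cell surface receptors built from 1 alpha and 1 beta chain, and both chains must be made for the pair to reach the membrane. On T cells they hold the cell to other cells and to the matrix, and the pair a cell carries helps to set the tissue it enters. They bind firmly only after signals inside the cell, carried by the small GTPase Rap1, talin and kindlin-3, have opened them. Here 10 subunit genes were examined, 6 alpha chains (Itgal, Itga4, Itga6, Itgav, Itgae and Itga1) and 4 beta chains (Itgb2, Itgb7, Itgb1 and Itgb3). They were taken by name from the 22483 gene symbols used, and each had a single row in all 4 libraries. Another 16 integrin subunit genes in the files are described after them.

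The study sequenced RNA from mouse spleen T cells of C57BL/6 background in 4 groups of 1 library each. Invariant natural killer T (iNKT) cells, a lineage that recognises lipids on CD1d, were sorted by T cell receptor beta and a loaded CD1d tetramer, from wild-type mice (WT iNKT) and from mice of genotype Ezh2fl/fl CD4-Cre (KO iNKT). CD4+ T cells with high CD44, an antigen-experienced fraction (CD44hi), were sorted by T cell receptor beta, CD44 and CD4 from the same genotypes (WT CD44hi and KO CD44hi). Ezh2 supplies the enzyme activity of Polycomb repressive complex 2, which marks genes for silencing, and the Cd4 promoter drives Cre in all cells that pass through a CD4-expressing stage. The labels do not say whether tetramer-positive cells were left in the CD44hi sort, and they give no age, no number of mice per library and no word on whether the WT mice carried floxed alleles or Cre. With 1 library per group there was no replicate and no test, and every interval below covers counting error only.

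Levels are FPKM, fragment numbers corrected for the length of the transcript and the depth of the library. A gene counted as measured in a comparison if either library reached 1 FPKM, and it was called higher or lower when log2(FPKM + 1) differed by 2-fold or more. Ratios and folds are those of the FPKM values themselves. The estimated depth relative to WT iNKT was 1.08 for KO iNKT, and for CD44hi it was 3.69 (WT) and 4.89 (KO), so cell type and any batch cannot be told apart. Markers of cells other than T cells were detected in the CD44hi libraries. The summed level of 10 plasmacytoid dendritic cell markers was 187 FPKM in WT CD44hi and 772 in KO CD44hi, that of 10 conventional dendritic cell markers 723 and 1122, and that of 11 monocyte and macrophage markers 265 and 298. Of the plasmacytoid markers, 9 were called higher in KO CD44hi than in WT CD44hi and 0 lower, where 2.44% of all measured genes were higher and 1.14% lower. Red cell markers (8 genes) summed to 194 FPKM (WT) and 939 (KO) in CD44hi, with 6 of 7 measured called higher in KO, NK cell and ILC1 markers (9 genes) to 238 and 486, and B cell markers (10 genes) to 62.1 and 98.1. In iNKT the plasmacytoid sum was 161 FPKM (WT) and 128 (KO), with 4 of the 10 markers at 1 FPKM or more in each library and Siglech, a defining receptor of these cells, listed at 0 in both. The conventional dendritic cell sum in iNKT was 6.39 to 12.0 FPKM, that of monocytes and macrophages 15.3 to 23.4, of red cells 23.3 to 24.5, of NK cells and ILC1 27.0 to 126, and of B cells 0.866 to 1.40. Of the NK cell and ILC1 sum, Gzma held 1.72 FPKM in WT iNKT and 89.0 in KO iNKT. In CD44hi most of that sum was Tyrobp, at 121 (WT) and 305 FPKM (KO), and Fcer1g, at 95.2 (WT) and 155 (KO). Of the 8 NK cell and ILC1 markers measured in the CD44hi pair, 5 had more RNA in KO and 3 less. The 3 were Ncr1 (1.42 to 0.565 FPKM from WT to KO), Eomes (3.51 to 1.497) and Gzma (9.97 to 5.92), each short of 2-fold. The sum thus does not show a rise of all these markers in KO CD44hi. The part of these cells in the member levels was not tested. All 13 T cell identity genes were above 1 FPKM in every library. Of 9 iNKT cell markers, 3 (Zbtb16, Klrb1c and Cd160) were called higher in KO CD44hi than in WT CD44hi and 0 lower. In iNKT, 3 (Zbtb16, Slamf6 and Egr2) were higher in KO (6.08% of all genes) and 3 (Cxcr6, Il2rb and Tbx21) lower (3.35%). WT iNKT was higher than WT CD44hi in 6 (3.65%) and lower in 1 (10.9%). Between KO iNKT and KO CD44hi, 1 was higher (3.03%) and 0 lower (9.06%). The part of this in the member levels was not tested. The Y-linked gene Eif2s3y was at 22.7 FPKM in WT CD44hi and listed at 0 in the other 3 libraries. Ddx3y, also Y-linked, was at 11.5 FPKM in WT CD44hi and at or under 0.00445 in the others. The X-linked Xist was at 46.8 FPKM in WT CD44hi, 80.0 in KO CD44hi, and 55.3 (WT) and 76.8 (KO) in iNKT. WT CD44hi thus differed from the other libraries in Y-linked genes too, and the part of sex in the member levels was not tested. Ezh2 RNA over the whole gene was at 15.3 (WT) and 16.8 FPKM (KO) in iNKT and 28.9 (WT) and 18.5 FPKM (KO) in CD44hi, and since only the floxed part is removed, this does not check the genotype. In bulk samples, fewer cells of a type and less RNA per cell cannot be told apart.

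**Figure D1:**
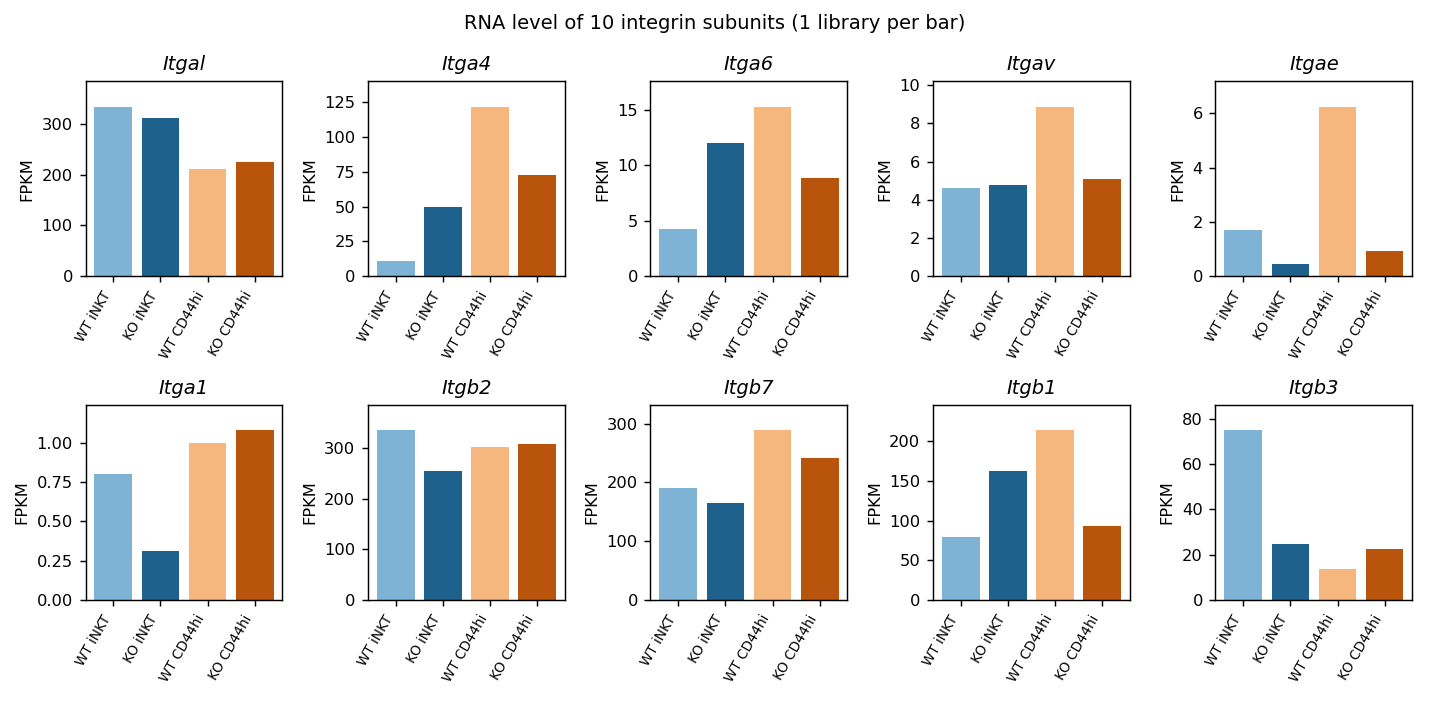
FPKM (y axis, from 0, scaled per panel) of the 10 integrin subunits, with 1 bar per library. Itga4, Itga6 and Itgb1 are lowest in WT iNKT and highest in WT CD44hi, with both KO libraries between, whereas Itgb3 is highest in WT iNKT at 75.0 FPKM and lowest in WT CD44hi at 13.8.

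Itgal and Itgb2 encode the alpha and beta chains of LFA-1, the receptor for ICAM-1 and ICAM-2 that holds T cells to antigen-presenting cells and vessel walls. They were the 2 highest members in both iNKT libraries, and Itgb2 was the highest in both CD44hi libraries. Itgal (chromosome 7, 127296260 to 127335138 in GRCm38) was at 334 (WT) and 312 FPKM (KO) in iNKT and 211 (WT) and 224 FPKM (KO) in CD44hi. It was higher in both iNKT libraries than in either CD44hi library, by 1.58-fold in WT (95% counting interval 1.54 to 1.63) and 1.39-fold in KO (1.36 to 1.43). Neither difference reached 2-fold. Itgb2 (chromosome 10, 77530252 to 77565708) was at 335, 256, 302 and 307 FPKM in the same order of libraries. Its values lay within 1.31-fold of each other, with KO iNKT the lowest. The KO to WT ratio in iNKT was 0.933 (0.904 to 0.964) for Itgal and 0.763 (0.731 to 0.795) for Itgb2. Under scaling to the T cell identity genes the log2 difference of Itgal in iNKT turned from -0.10 to 0.15. In CD44hi the unscaled KO to WT ratio was 1.06 (1.04 to 1.08) for Itgal and 1.02 (0.997 to 1.04) for Itgb2.

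Within a library the 2 LFA-1 chains were close to balance. The ratio of Itgal to Itgb2 FPKM was 0.996 (0.960 to 1.03) in WT and 1.22 (1.17 to 1.27) in KO iNKT, and 0.697 (0.682 to 0.712) in WT and 0.728 (0.715 to 0.741) in KO CD44hi. Both CD44hi libraries held less Itgal RNA per Itgb2 RNA. The other alpha partners of Itgb2 are typical of myeloid cells and were found beside it there. Itgax, which marks dendritic cells, was at 37.8 FPKM in WT CD44hi and 50.6 in KO CD44hi, but at 0.329 in WT iNKT and listed at 0 in KO iNKT. Itgad was at 8.41 (WT) and 8.36 FPKM (KO) in CD44hi, and Itgam, a myeloid and NK cell chain, at 3.39 and 4.22, against 0.143 to 0.389 for these 2 genes in iNKT. When all 4 partners were summed, the alpha to beta ratio was 0.861 (WT) and 0.933 (KO) in CD44hi. The part of other cells in the Itgb2 level of the CD44hi libraries was not tested.

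Itga4 encodes the alpha4 chain, which pairs with beta1 as VLA-4, a receptor for VCAM-1 and fibronectin, and with beta7 as the gut homing receptor for MAdCAM-1. Its RNA varied more across the libraries than that of any other member on the log2(FPKM + 1) scale, with a span of 3.37. Itga4 (chromosome 2, 79255426 to 79333123) was at 10.9 (WT) and 49.4 FPKM (KO) in iNKT and 122 (WT) and 73.0 FPKM (KO) in CD44hi. WT iNKT was the lowest and WT CD44hi the highest, and the KO libraries lay between them. KO iNKT held 4.54-fold more than WT iNKT (4.13 to 4.998; log2 difference 2.09), which was called higher. In CD44hi the KO to WT ratio was 0.599 (0.587 to 0.612; log2 difference -0.73), in the opposite direction and short of 2-fold. Cerkl, which runs on the other strand and overlaps Itga4, was at 1.12, 0.382, 1.69 and 1.14 FPKM in the same order, and reads of the 2 genes cannot be told apart without strand.

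Itgb7, the beta chain shared by the MAdCAM-1 receptor and the E-cadherin receptor, did not follow Itga4. It (chromosome 15, 102215995 to 102231944) was at 190 (WT) and 165 FPKM (KO) in iNKT and 289 (WT) and 242 FPKM (KO) in CD44hi. Both CD44hi libraries were above both iNKT libraries, and within each cell type WT was above KO. The KO to WT ratio was 0.867 (0.819 to 0.918) in iNKT and 0.839 (0.820 to 0.858) in CD44hi, both short of 2-fold. When libraries were scaled to the T cell identity genes, the log2 difference in iNKT turned from -0.20 to 0.04 and that in CD44hi went from -0.25 to -0.01. The ratio of Itga4 to Itgb7 FPKM was 0.0573 (0.0521 to 0.0630) in WT iNKT and 0.300 (0.283 to 0.317) in KO iNKT, a 5.24-fold shift. In CD44hi it was 0.421 (0.413 to 0.431) in WT and 0.301 (0.295 to 0.308) in KO. The counting intervals of the 2 KO libraries overlapped, while the WT libraries differed by 7.36-fold.

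Itgb1 encodes the beta1 chain, the common partner of most matrix-binding alpha chains. The gene (chromosome 8, 128685654 to 128733200) was at 80.0 (WT) and 163 FPKM (KO) in iNKT and 214 (WT) and 93.0 FPKM (KO) in CD44hi. As with Itga4, WT iNKT was the lowest and WT CD44hi the highest. KO iNKT held 2.04-fold more than WT iNKT (1.92 to 2.17; log2 difference 1.02), just past the 2-fold rule, and its counting interval reached below it. KO CD44hi held 2.30-fold less than WT CD44hi (2.24 to 2.36; log2 difference -1.19) and was called lower. That call was lost when libraries were scaled to the T cell identity genes, where the log2 difference was -0.95 and 0.683% of genes were called lower. The ratio of Itga4 to Itgb1 FPKM was 0.136 (0.123 to 0.151) in WT and 0.303 (0.288 to 0.319) in KO iNKT, and 0.569 (0.557 to 0.581) in WT and 0.784 (0.764 to 0.805) in KO CD44hi. It was higher in KO than in WT in both cell types, by 2.23-fold in iNKT and 1.38-fold in CD44hi. In iNKT, Itga4 differed more than Itgb1 between genotypes, and in CD44hi Itgb1 differed more than Itga4.

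The promoters of the alpha4, beta1 and beta7 genes are shown because Itga4 and Itgb1 were both higher in KO iNKT while Itgb7 was not. Each is the 250 bases before the start of the gene in RefSeq (GRCm38.p6), 5′ to 3′ on the gene's strand, at chr2:79255176-79255425 (plus) for Itga4, chr8:128685404-128685653 (plus) for Itgb1 and chr15:102231936-102232185 (minus) for Itgb7. Capitals mark matches on either strand to a T-box site (GGTGTGA), a RUNX site (TGTGGT) or an ETS site (GGAAGT), 3 motifs of factor families active in T cells that were chosen after the sequences had been read.
Itga4: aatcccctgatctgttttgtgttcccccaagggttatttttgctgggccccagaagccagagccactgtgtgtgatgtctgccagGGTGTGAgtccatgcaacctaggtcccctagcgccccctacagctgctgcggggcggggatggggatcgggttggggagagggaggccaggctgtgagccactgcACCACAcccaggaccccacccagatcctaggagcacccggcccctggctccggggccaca
Itgb1: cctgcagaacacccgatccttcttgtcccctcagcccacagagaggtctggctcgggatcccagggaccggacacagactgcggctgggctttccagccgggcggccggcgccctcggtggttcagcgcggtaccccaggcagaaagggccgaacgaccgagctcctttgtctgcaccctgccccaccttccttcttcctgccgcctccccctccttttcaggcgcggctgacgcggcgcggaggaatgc
Itgb7: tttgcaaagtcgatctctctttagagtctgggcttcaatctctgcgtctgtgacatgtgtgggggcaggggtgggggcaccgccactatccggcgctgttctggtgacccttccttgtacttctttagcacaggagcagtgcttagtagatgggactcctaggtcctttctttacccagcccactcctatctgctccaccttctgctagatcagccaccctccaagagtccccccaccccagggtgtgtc
Itga4 held 1 T-box match, 165 to 159 bases before the start, and 1 RUNX match on the other strand, 60 to 55 bases before it. No letters of the 3 motifs were found in the other 2 windows. Over all 32851 promoters of the same length, 3.33% held the T-box letters, 14.0% the RUNX letters and 19.7% the ETS letters on either strand. CG dinucleotides numbered 6 in Itga4 and 5 in Itgb7, near the median of 6 over all promoters, and 21 in Itgb1, where 83.7% of promoters had fewer. The promoters of Itgav (18 CG, 2 ETS matches) and Itga1 (10 CG, 1 ETS match) were the others of the 10 members in the table. A match describes letters and not binding.

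Itgae encodes CD103, the alpha chain that with beta7 binds E-cadherin and retains T cells in epithelia, and which some regulatory T (Treg) cells also carry. Itgae (chromosome 11, 73090583 to 73147446) was at 1.71 (WT) and 0.445 FPKM (KO) in iNKT and 6.25 (WT) and 0.949 FPKM (KO) in CD44hi. Only WT CD44hi stood above 2 FPKM, and in each cell type KO was below WT. KO CD44hi was 6.59-fold lower than WT CD44hi (5.23 to 8.41; log2 difference -1.90) and was called lower. In iNKT the plain ratio was 3.84-fold lower in KO (1.79 to 9.16), from an estimated 32 and 9 fragments. The log2(FPKM + 1) difference of -0.91 missed the rule, and with a pseudocount of 0.1 FPKM it passed, as 5.14% of genes did in that direction. In both genotype comparisons Itgae passed the 1 FPKM limit only through the WT library, where it was high, so nothing is read from these calls. Haspin, listed as Gsg2, lies inside Itgae on the other strand and was at 5.42, 4.81, 3.99 and 3.20 FPKM in the 4 libraries, so part of the low Itgae values cannot be told apart from its reads. The ratio of Itgae to Itgb7 FPKM was 0.0217 (0.0196 to 0.0238) in WT CD44hi and at or below 0.00899 in the other 3 libraries.

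Like Itgae, most Treg markers were lower in KO than in WT in the CD44hi pair. Of 10 such markers, 6 were at least 2-fold lower in KO CD44hi and 0 higher, where 1.14% of all genes were lower and 2.44% higher. Their median log2 difference was -1.38, beside 0.01 over all genes. Their summed level was 727 FPKM (WT) and 583 (KO) in CD44hi, and 267 (WT) and 617.9 (KO) in iNKT. They did not move with Itgae in the iNKT pair, where 8 were measured. There 3 (Ikzf2, Folr4 and Nrp1) were called higher in KO and 1 (Il2ra) lower, beside 6.08% and 3.35% of all genes. Foxp3, the Treg master regulator, was at 53.8 FPKM in WT CD44hi and 13.4 in KO CD44hi, and Lrrc32, which holds latent TGF-beta on the cell surface, at 11.7 and 2.02. Itgb8, whose product activates latent TGF-beta together with alphaV, was at 3.50 (WT) and 0.506 FPKM (KO) in CD44hi, 6.93-fold lower in KO (5.58 to 8.62), and listed at 0 in both iNKT libraries. Itgb8 passed the 1 FPKM limit in the CD44hi pair only through WT CD44hi, where it was high, so nothing is read from its call. Foxp3 was at 0.446 (WT) and 0.115 FPKM (KO) in iNKT. The part of the Treg share in the Itgae and Itgb8 values was not tested.

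Itga6, Itgav and Itga1 encode alpha chains that pair with beta1 to bind laminins, RGD-containing ligands such as fibronectin, and collagens, respectively. All 3 were far below Itgb1 in every library. Itga6 (chromosome 2, 71745616 to 71858416) was at 4.31 (WT) and 12.0 FPKM (KO) in iNKT and 15.3 (WT) and 8.85 FPKM (KO) in CD44hi. Its order of libraries was that of Itga4 except that KO iNKT lay above KO CD44hi. KO iNKT was 2.80-fold higher than WT iNKT (2.19 to 3.59; log2 difference 1.298), which was called. In CD44hi the KO to WT ratio was 0.578 (0.529 to 0.631), short of 2-fold. Itgb1 differed in the same directions, and the ratio of Itga6 to Itgb1 FPKM kept to between 0.0538 and 0.0951 in the 4 libraries.

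Itgav (chromosome 2, 83724397 to 83806916) was at 4.63 (WT) and 4.79 FPKM (KO) in iNKT and 8.88 (WT) and 5.07 FPKM (KO) in CD44hi. Only WT CD44hi stood apart, and the KO to WT ratio was 1.03 (0.826 to 1.29) in iNKT and 0.570 (0.521 to 0.625) in CD44hi. Itga1 (chromosome 13, 114953096 to 115101964), whose product CD49a marks tissue-resident lymphocytes, was at 1.08 FPKM or less throughout, with 0.804 in WT and 0.310 in KO iNKT, and 0.999 in WT and 1.08 in KO CD44hi. KO iNKT was the lowest, from an estimated 18 fragments, and Itga1 fell under the 1 FPKM limit in the iNKT comparison. Pelo lies within Itga1 on the same strand and was at 8.59 to 11.2 FPKM, so reads near it may be shared. When all 12 beta1 partner genes in the files were summed, the alpha to Itgb1 ratio was 0.342 in WT and 0.459 in KO iNKT, and 0.747 in WT and 1.09 in KO CD44hi.

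Itgb3 encodes the beta3 chain, which pairs with alphaV as the vitronectin receptor and, on platelets, with alphaIIb as the fibrinogen receptor. The gene (chromosome 11, 104608000 to 104670476) was at 75.0 (WT) and 24.8 FPKM (KO) in iNKT and 13.8 (WT) and 22.4 FPKM (KO) in CD44hi. WT iNKT stood far above the other 3 libraries and WT CD44hi was the lowest, the reverse of the order seen for Itga4. KO iNKT was 3.02-fold lower than WT iNKT (2.78 to 3.29; log2 difference -1.56) and was called lower. KO CD44hi was 1.63-fold higher than WT CD44hi (1.53 to 1.73), short of 2-fold. The 9 platelet and megakaryocyte markers summed to between 1.01 and 1.60 FPKM in the 4 libraries, none of them reached 1 FPKM, and Pf4, a platelet chemokine, was listed at 0 in both iNKT libraries. Itga2b, the alphaIIb gene, is among these markers.

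Itgb3 RNA exceeded that of its partner Itgav in every library. The ratio of Itgav to Itgb3 FPKM was 0.0618 (0.0523 to 0.0728) in WT and 0.193 (0.163 to 0.228) in KO iNKT, and 0.645 (0.595 to 0.697) in WT and 0.226 (0.209 to 0.244) in KO CD44hi. The WT libraries differed by 10.4-fold, and the KO libraries by 1.17-fold, with overlapping counting intervals. The shift in iNKT came with a level of Itgav that was alike in both genotypes, and that in CD44hi with differences in both chains.

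**Figure D2:**
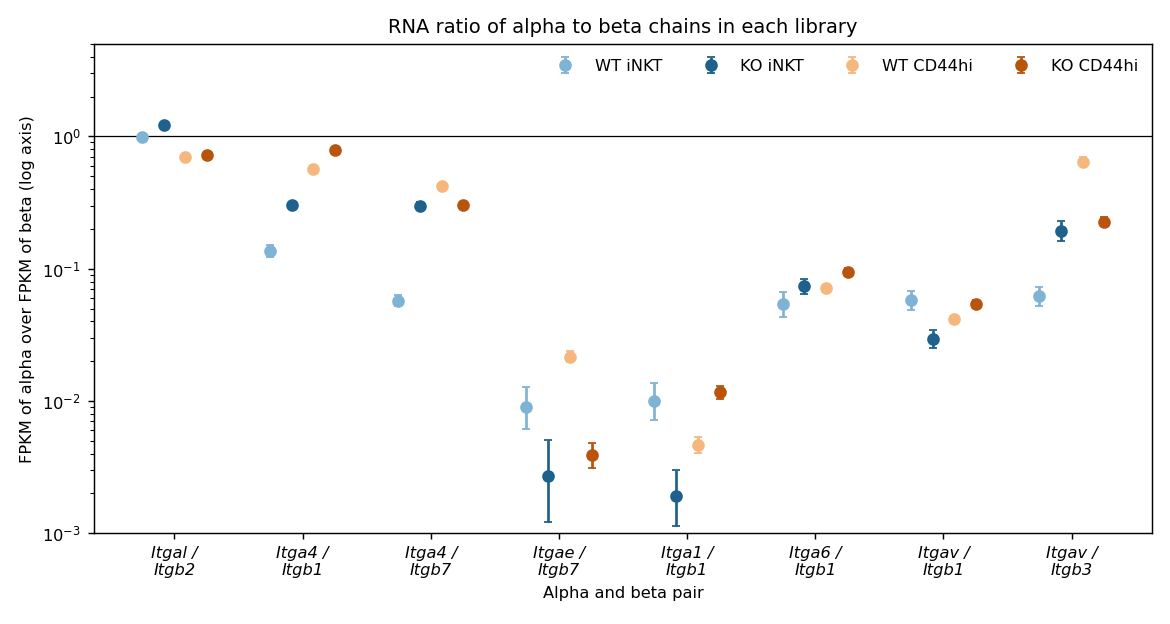
Ratio of alpha to beta FPKM (y axis, log scale) for 8 integrin pairs in the 4 libraries, 1 point per library with its 95% counting interval, and a line at equal levels. Itgal and Itgb2 lie near 1, and for Itga4 with Itgb7 and Itgav with Itgb3 the KO libraries are close together (0.300 and 0.301; 0.193 and 0.226) while the WT libraries are far apart.

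Between genotypes in iNKT, 3 of the 9 members measured (Itga4, Itga6 and Itgb1) were called higher and 1 (Itgb3) lower, where 6.08% of the 10818 measured genes were called higher and 3.35% lower. In CD44hi, 0 were called higher and 2 (Itgae and Itgb1) lower of the 10 measured, where 2.44% of 11353 genes were higher and 1.14% lower. Itgae passed the 1 FPKM limit there only through WT CD44hi, where it was high, so nothing is read from its call. Itgb1 was called in both cell types, in opposite directions. Itga4, Itga6 and Itgb3 also differed in opposite directions in the 2 cell types, each by 1.5-fold or more in both. The difference of the log2 differences (iNKT minus CD44hi) was 2.82 for Itga4, 2.03 for Itga6, 2.21 for Itgb1 and -2.22 for Itgb3, and it was not tested. Opposite differences of 1.5-fold or more in both comparisons were found in 4 of the 9 members and 3.09% of the 10453 genes measured in both. Itgal, Itgb2 and Itgb7 stayed within 1.31-fold in both comparisons.

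Between cell types the members differed in WT and less so in KO by count. WT iNKT was called lower than WT CD44hi in Itga4 (11.2-fold, 10.2 to 12.2), Itga6 (3.56-fold, 2.87 to 4.47), Itgae (3.66-fold, 2.56 to 5.43) and Itgb1 (2.68-fold, 2.54 to 2.82). It was called higher in Itgb3 (5.44-fold, 5.09 to 5.82). These were 4 lower and 1 higher of the 9 members measured, as Itga1 was under 1 FPKM in both WT libraries, where 10.9% of 11219 genes were lower and 3.65% higher. Between KO iNKT and KO CD44hi, 9 of the 10 members were measured and 0 called, where 3.03% of 11471 genes were higher and 9.06% lower. Itgae, under 1 FPKM in both KO libraries, could not be called. The KO iNKT to KO CD44hi ratio was 0.678 (0.650 to 0.706) for Itga4, 1.36 (1.18 to 1.56) for Itga6, 1.75 (1.68 to 1.83) for Itgb1 and 1.11 (1.02 to 1.20) for Itgb3. Itgb1 passed the rule under scaling to the T cell identity genes (log2 difference 1.07 against 0.80), where 6.22% of genes were called higher. Itga1 passed it with a pseudocount of 0.1 FPKM, where 11.5% of genes were called lower, but it reached 1 FPKM only in KO CD44hi. Each KO library enters both a genotype and a cell type comparison, so these counts are not independent, and no interaction could be tested. At a 1.5-fold rule the members called were 5 between genotypes in iNKT (23% of all measured genes), 6 in CD44hi (9.9%), 8 between the WT libraries (29.3%) and 2 between the KO libraries (26.5%).

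**Figure D3:**
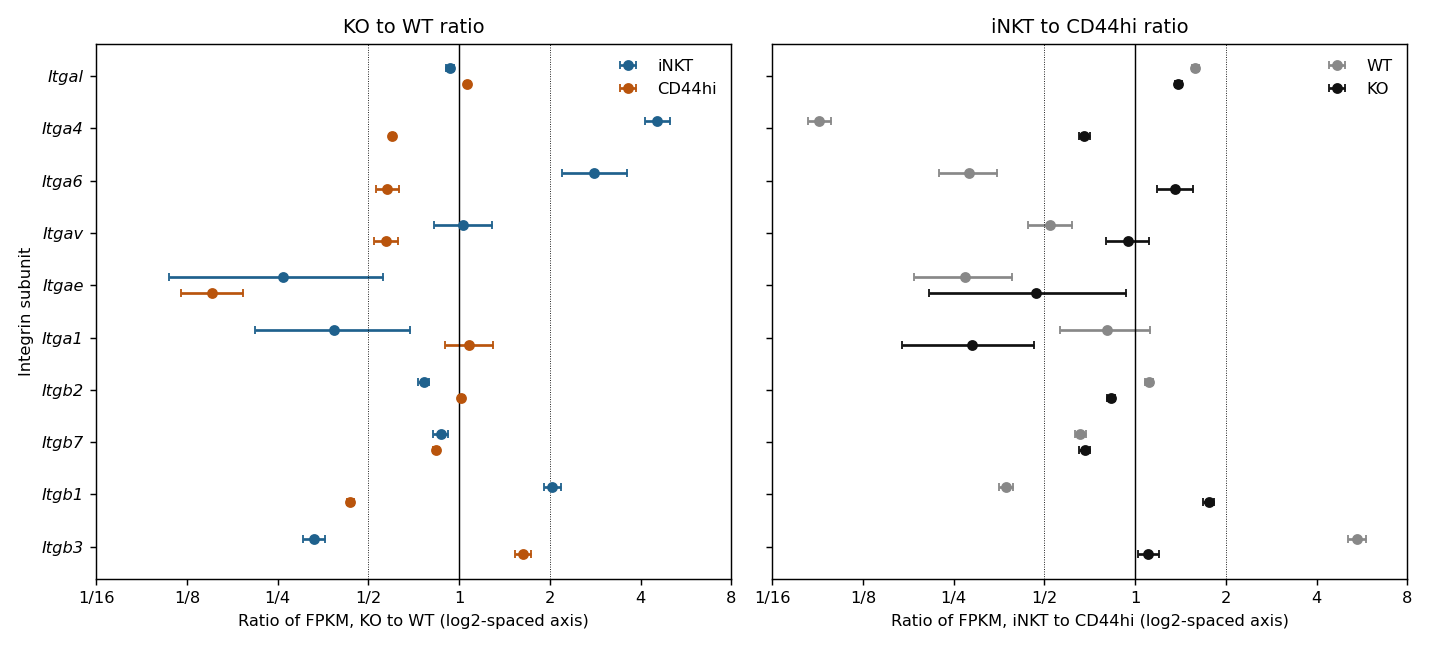
Plain ratios of FPKM (x axis, log2-spaced) for each member, KO to WT on the left and iNKT to CD44hi on the right, with 95% counting intervals and dotted lines at 2-fold. On the left, Itga4, Itga6 and Itgb1 lie right of 1 in iNKT and left of it in CD44hi, and Itgb3 the reverse. On the right, Itga4 moves from 0.0894 in WT to 0.678 in KO and Itgb3 from 5.44 to 1.11.

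The make-up of integrin RNA differed between the libraries. Itgal made up 93.7% of the summed FPKM of the 6 alpha members in WT and 82.3% in KO iNKT, against 57.9% (WT) and 71.6% (KO) in CD44hi. Itga4 made up 3.06%, 13.1%, 33.5% and 23.3% in the same order. Of the 4 beta members, Itgb1 took 11.8% in WT and 26.8% in KO iNKT, and 26.1% in WT and 14.0% in KO CD44hi, and Itgb3 took 11.03%, 4.08%, 1.68% and 3.37%. The Itgb7 share was 27.9% and 27.1% in WT and KO iNKT and 35.3% and 36.4% in WT and KO CD44hi. These shares are of RNA, and protein pairs at the surface were not measured.

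Of the other 12 alpha genes, 5 were measured in the iNKT pair, 1 of them called higher in KO and 0 lower, beside 6.08% and 3.35% of all genes. That gene was Itga7, a laminin-binding chain known from muscle, at 0.0507 (WT) and 3.85 FPKM (KO) in iNKT and 5.30 (WT) and 5.32 FPKM (KO) in CD44hi. The WT iNKT value is that of a single estimated fragment, and the KO to WT ratio was 75.9 with a counting interval of 13.2 to 3032. Itga7 passed the 1 FPKM limit in the iNKT pair only through KO iNKT, where it was high, so nothing is read from its call. Itga5, the fibronectin receptor chain, was at 2.14 (WT) and 0.602 FPKM (KO) in iNKT and 1.36 (WT) and 2.37 FPKM (KO) in CD44hi, with log2 differences of -0.97 in iNKT and 0.51 in CD44hi. Itga2 (0.759 to 1.92 FPKM), Itga3 (1.502 to 2.33) and Itga10 (0.800 to 1.11) were low in all 4 libraries. Itga9 was at 1.71 (WT) and 1.28 FPKM (KO) in CD44hi and at or under 0.0285 in iNKT. Of the 4 other beta genes, Itgb8 (above) and Itgb5 reached 1 FPKM, the latter at 2.25 (WT) and 1.98 (KO) in CD44hi and under 0.12 in iNKT.

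Among 42 genes that activate integrins or tie them to the cytoskeleton, 35 were measured in the iNKT pair, with 3 called higher and 1 lower in KO. The shares over all measured genes were 6.08% higher and 3.35% lower, so these counts were near the background. The list had a median log2 difference of -0.09, beside 0.05 over all genes. The higher genes were Cd81 (7.07 to 49.5 FPKM) and Cd9 (22.2 to 102), tetraspanins that associate with beta1 integrins, and Actn1, which links integrins to actin (4.13 to 18.7). Rasgrp1, an exchange factor of the Ras family in T cells, was lower (80.1 to 36.5). Flna, which encodes filamin A and binds beta tails, was at 49.5 (WT) and 97.8 FPKM (KO) in iNKT (log2 difference 0.97) and at 146 (WT) and 83.8 (KO) in CD44hi (-0.79), the same order of signs as Itgb1 but short of 2-fold. In CD44hi, 37 were measured and 0 were called, with a median of -0.07, where 2.44% of all genes were called higher and 1.14% lower.

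The core of the activation path was at high levels in all libraries. Tln1 (talin) was at 86.5 (WT) and 84.4 FPKM (KO) in iNKT and 112 (WT) and 104 FPKM (KO) in CD44hi, and Fermt3 (kindlin-3) at 136, 145, 124 and 146. Rap1b, a Rap1 GTPase, was at 241, 129, 161 and 137 FPKM, with a log2 difference of -0.90 between KO and WT iNKT. Its exchange factor Rasgrp2 was at 59.2, 33.5, 91.6 and 65.3, and the Rap1 effector Apbb1ip (RIAM) at 104, 63.9, 80.2 and 82.0. None of these 5 genes passed 2-fold between genotypes.

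Of 29 genes of integrin ligands, 7 were measured in the iNKT pair, with 3 called higher and 1 lower in KO, beside 6.08% and 3.35% of all genes. The 3 higher genes passed the 1 FPKM limit only through KO iNKT, where they were high, so nothing is read from that count. Icam1, an LFA-1 ligand that T cells themselves carry, was lower at 17.9 FPKM in KO iNKT against 51.1 in WT iNKT (log2 difference -1.46), and at 40.4 (WT) and 47.7 (KO) in CD44hi. Icam2 was at 54.9, 50.8, 38.3 and 40.2 FPKM in the 4 libraries. Thbs1, a matrix protein bound by several integrins, went from 0.0692 to 6.40 FPKM between WT and KO iNKT, Col1a1 from 0.129 to 2.43, and Spp1 (osteopontin) was listed at 0 in WT iNKT and reached 2.65 in KO iNKT. In CD44hi, 10 were measured, with Cdh1, the E-cadherin ligand of CD103, higher in KO (0.511 to 4.40 FPKM) and Lamc1 (4.61 to 1.35) and Esm1 (2.49 to 0.499) lower. Over all genes 2.44% were higher and 1.14% lower. Cdh1 passed the 1 FPKM limit only through KO CD44hi and Esm1 only through WT CD44hi, so nothing is read from their calls. Vcam1, the VLA-4 ligand, was at 24.0 (WT) and 22.8 FPKM (KO) in CD44hi and at 1.88 (WT) and 0.617 (KO) in iNKT. It stands in the macrophage marker list, all 11 of which were called lower in iNKT than in CD44hi in both genotypes. Over all genes 10.9% were lower in WT and 9.06% in KO. The part of other cells in the ligand values was not tested.

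**Figure D4:**
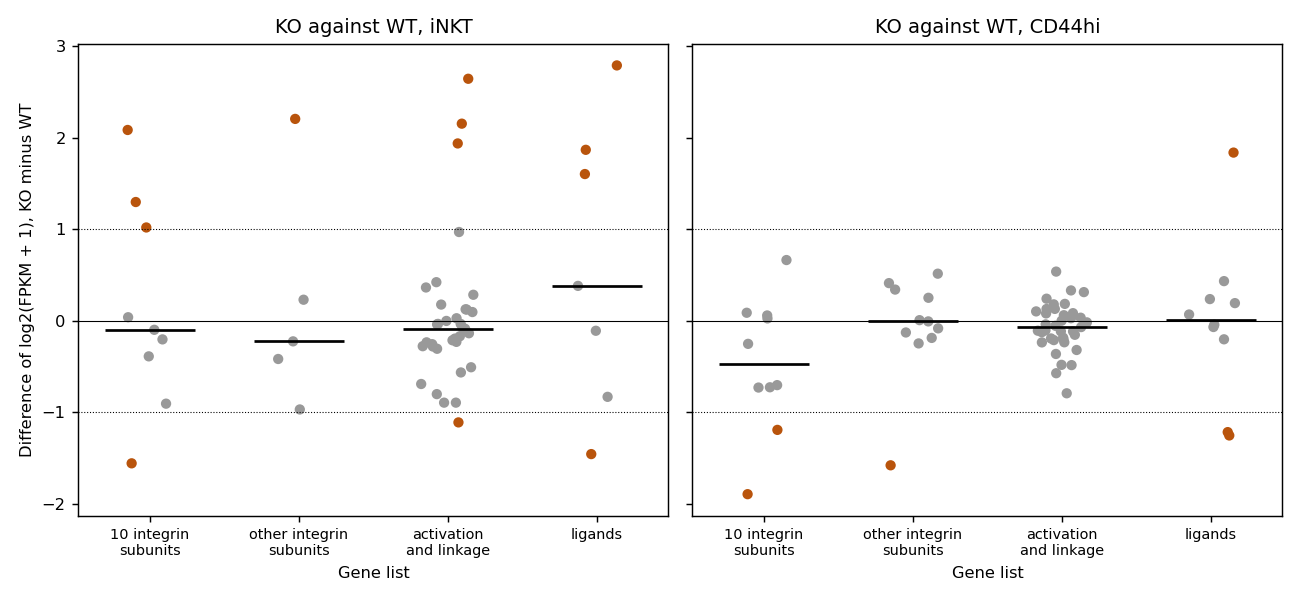
Difference of log2(FPKM + 1), KO minus WT (y axis), for measured genes of 4 lists in iNKT (left) and CD44hi (right). Each point is a gene, orange where called at 2-fold (dotted lines), with a bar at the list median, and the points are spread sideways for sight. In iNKT the points past 2-fold are 4 members, Itga7, 4 activation and linkage genes and 4 ligand genes, and in CD44hi they are 2 members, Itgb8 and 3 ligand genes. Some of them, among them Itga7, Itgae and Itgb8, passed the 1 FPKM limit only through the library where they were high.

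For each member called between genotypes, the nearest protein-coding gene in the files on each side was taken. Of these 10 genes, 5 were measured in the iNKT pair, and 1 was called higher and 1 lower, beside 6.08% and 3.35% of all genes. Nrp1, a semaphorin receptor found on Treg cells, is the neighbour of Itgb1 at a distance of 182291 bases and was at 8.84 (WT) and 37.6 FPKM (KO) in iNKT and 22.01 (WT) and 7.41 FPKM (KO) in CD44hi. It was called higher in KO iNKT and lower in KO CD44hi, the directions of Itgb1, and it is also 1 of the 10 Treg markers. Myl4, a myosin light chain gene 12247 bases from Itgb3, was at 4.56 FPKM in WT iNKT and 0.527 in KO iNKT, and at 2.32 (WT) and 2.27 (KO) in CD44hi. Myl4 was called lower in KO iNKT. It passed the 1 FPKM limit there only through WT iNKT, where it was high, so nothing is read from its call. Ube2e3 beside Itga4, Pdk1 beside Itga6 and Ncbp3 beside Itgae (listed as 1200014J11Rik) were measured and not called in either comparison. The other 5 neighbours (Neurod1, Dlx2, P2rx5, Ccdc7a and Efcab3) were under 1 FPKM in all 4 libraries.

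Among 8308 other genes, those with the most similar pattern were found by the Euclidean distance between centred log2(FPKM + 1) values over the 4 libraries, for the 5 members spanning 1 or more on that scale. The pool of 8308 was limited to genes with a single row per library and 5 FPKM or more in at least 1 library, without names of predicted genes. The 3 nearest were Spp1, Actn1 and Pou2af1 for Itga4 (distances 0.41 to 0.50), and Ndrg2, Larp1b and Sdcbp2 for Itga6 (0.12 to 0.16). For Itgb1 they were S100a6, Cdc25b and Lclat1 (0.20 to 0.27), and for Itgb3 Klrk1, Arsb and Serinc3 (0.21 to 0.23). For Itgae they were Nfil3, Glipr2 and Pdlim4 (0.39 to 0.57). S100a6, at 84.9 (WT) and 183 FPKM (KO) in iNKT and 198 (WT) and 93.9 FPKM (KO) in CD44hi, tracked Itgb1 closely in level too. Klrk1, which encodes the NK cell receptor NKG2D, was at 75.4, 22.3, 11.2 and 19.1 FPKM, near the values of Itgb3.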

How the data were processed

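The authors deposited 1 table per library with gene symbols and FPKM, per the file headers. Cufflinks 2.0.2, TopHat 1.3.2 and Bowtie2 2.0.0 with build mm10 are named in the submitters' processing notes, without roles. The annotation, filters and strand setting are not given in the sources used here, and per the labels the kit was TruSeq RNA v2, which does not mark strand.

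Rows with symbols turned into dates (26, in the CD44hi files) and small RNA genes were left out, and rows sharing a symbol were summed. Library depth was estimated from the spacing of low FPKM values over single-transcript genes of 3000 bases or more (GENCODE M21, GRCm38). Between 63.4% and 67.4% of low values lay within 0.1 of a whole fragment. Intervals are 95% exact (Clopper-Pearson), from estimated fragments, and cover counting error only. Gene lengths may differ from the authors', which alters the interval widths and not the ratios between libraries. Each difference is log2(FPKM + 1), which understates changes of low genes. The script was tested on simulated data. Analyses used Python 3.11.15, pandas 2.3.3, NumPy 2.4.6 and SciPy 1.17.1.

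The members and gene lists were chosen with earlier results of these data known. All members were named, with the other subunits at 1 FPKM or more in any library, up to 6 genes per list by absolute difference and a fixed set of activation and ligand genes, and the neighbours by distance.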

Additional observations from a re-analysis of the deposited data

Results flagged for a closer look

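Itga4, Itga6, Itgb1 and Itgb3 differed between KO and WT in opposite directions in iNKT and CD44hi, by 1.5-fold or more in both. The difference of the 2 log2 differences, iNKT minus CD44hi, was 2.82 for Itga4, 2.03 for Itga6, 2.21 for Itgb1 and -2.22 for Itgb3. With 1 library per group these differences were not tested. Among genes measured in both comparisons, 0.679% had a larger absolute value than Itga4, 1.51% than Itgb3, 1.54% than Itgb1 and 2.17% than Itga6. These members were flagged for opposite differences, so large values follow from the rule and the shares are no test. For the other members the share was 10.3% (Itgae), 16.5% (Itgav), 27.3% (Itga1, not measured in iNKT), 35.6% (Itgb2), 64.9% (Itgal) and 89.9% (Itgb7). Spread within groups could not be examined.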

How the results depend on the processing

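No paired analysis was possible because each group holds 1 library, and for the same reason no library could be left out. All 11 called differences of members (4 in iNKT, 2 in CD44hi and 5 between the WT libraries) kept their direction with a pseudocount of 0.1 FPKM, under median ratio scaling and under scaling to 13 T cell identity genes, and 1 call was lost, that of Itgb1 in CD44hi under the last. The scaling to T cell genes moved libraries by -0.26 (KO iNKT) to 0.26 (WT CD44hi) on the log2 scale. Differences that were not called could change sign under it. That of Itgal between genotypes in iNKT turned from -0.10 to 0.15, and that of Itgav between the KO libraries from -0.07 to 0.16. Under this scaling, the number of members called went from 2 to 1 in CD44hi and from 0 to 1 between the KO libraries. A pseudocount of 0.1 FPKM also gave 1 between the KO libraries. At a 1.5-fold call the counts were 6 in CD44hi (9.9% of all genes), 8 between the WT libraries (29.3%) and 2 between the KO libraries (26.5%). The count of members called in iNKT stayed at 4 or 5 in each alternative. A filter at 5 FPKM and no filter changed no count of members. All 32 shifts of alpha to beta ratios kept within 1.5 times with 0.1 FPKM added. Of the counts over gene lists, 9 moved by over 1.5 times and 71 did not with a pseudocount of 0.1 FPKM, and 7 moved and 73 did not under T cell scaling. Low depth limits Itga1 and Itgae in iNKT, with 9 to 43 estimated fragments.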

Other observations

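Integrins that contain alphaV can release active TGF-beta, and the genes of that pathway were looked at beside Itgav and Itgb8. Of 15 such genes, 11 were measured in the iNKT pair, with Tgfb3 called higher in KO (1.22 to 4.79 FPKM) and Smad7, an inhibitor induced by the pathway, lower (16.3 to 3.001). Over all measured genes 6.08% were higher and 3.35% lower, so these counts were near the background. In CD44hi, 12 were measured and Lrrc32 alone was called, lower in KO, where 2.44% of all genes were called higher and 1.14% lower. Tgfb1 was at 56.4 (WT) and 79.8 FPKM (KO) in iNKT and 89.0 (WT) and 91.0 FPKM (KO) in CD44hi, and the receptor Tgfbr2 at 52.3, 47.4, 66.5 and 58.0.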
